A study of Arabidopsis thaliana with 72 samples.

Results

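A set of 9 genes of the cell division cycle of *Arabidopsis thaliana* were followed through 9 tissues, chosen by name and locus number among the 32833 genes of the expression table. They were the cyclin-dependent kinases CDKA;1 (AT3G48750), CDKB1;1 (AT3G54180) and CDKB2;1 (AT1G76540), the B-type cyclins CYCB1;1 (AT4G37490) and CYCB1;2 (AT5G06150), the D-type cyclin CYCD3;1 (AT4G34160), the syntaxin KNOLLE (AT1G08560), and the sliding clamps PCNA1 (AT1G07370) and PCNA2 (AT2G29570). The rule that chose them used no measured value, but earlier results of these data were known when it was made. Below, the kinases are called the A-type, B1-type and B2-type kinase, the D-type member the D3 cyclin, and the B-type cyclins go by locus number, which is how the files name every gene.

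All plants were of the Col-0 accession, with no mutant and no treatment of the plants. Seedlings were taken at 7 days, shoots and roots separately at 14 days and rosetta leaves at 30 days, and flowers, siliques, stems and cauline leaves came from flowering plants. Seeds were mature and dry. The number of plants behind a sample is not given in the sources used here. Poly(A)-tailed RNA of these tissues was sequenced by BID-seq, in which bisulfite turns pseudouridine (Ψ, an isomer of uridine) into a deletion in the read. There were 56 bisulfite-treated and 16 untreated input libraries, 72 in all. Levels were deposited as TPM, a transcript abundance that is scaled for gene length and has the same sum in each column. Cauline leaf, flower, root, seedling, shoot, silique and stem had 2 columns each, and rosetta leaf and seed had 1 column each.

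In plants, as in other eukaryotes, a cyclin-dependent kinase is active only with a bound cyclin. D-type cyclins act with the A-type kinase at the entry into the cycle, where the retinoblastoma protein is phosphorylated and E2F factors switch on genes for DNA replication. B-type cyclins and the plant-specific B-type kinases act from the late second gap phase into mitosis, and their promoters often carry the mitosis-specific activator (MSA) element bound by MYB3R factors. PCNA is the ring that holds DNA polymerase on the template, and KNOLLE brings vesicles together at the cell plate, the new wall that divides a plant cell.

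The sequences of 2 kinds are shown because the later results refer to them. The first is the single Ψ site listed inside the 9 genes, in PCNA2, together with the matching stretch of its paralogue PCNA1, where no site was listed. Each line gives 31 bases of the transcribed strand from the TAIR10.1 reference, with the 7-base motif of the site in capitals and the modified base, written T, in its centre.
PCNA2 site, chr2:12651315-12651345, minus strand: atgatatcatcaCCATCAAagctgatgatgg
PCNA1 counterpart, chr1:2263457-2263487, plus strand: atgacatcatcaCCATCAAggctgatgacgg
The PCNA2 window occurred once in the genome. The PCNA1 window differed from it at 3 of 31 positions, T5C, A20G and T29C, counted from 1 at the 5′ end with the PCNA2 base first. None of the 3 lay in the motif.

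The second set is the promoters of both B-type cyclins, which held the most complete matches to the MSA element. Each line gives the 180 bases that end 1 base before the annotated transcript start, 5′ to 3′ on the gene's strand, with matches in capitals. Both strands were searched for the core AACGG and for the longer forms CCAACGG and CTAACGG, which contain it.
CYCB1;1, chr4:17624309-17624488, minus strand: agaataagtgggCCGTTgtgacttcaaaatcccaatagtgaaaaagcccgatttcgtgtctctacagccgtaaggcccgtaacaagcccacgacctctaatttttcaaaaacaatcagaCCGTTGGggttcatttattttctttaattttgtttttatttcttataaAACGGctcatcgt
CYCB1;2, chr5:1861704-1861883, minus strand: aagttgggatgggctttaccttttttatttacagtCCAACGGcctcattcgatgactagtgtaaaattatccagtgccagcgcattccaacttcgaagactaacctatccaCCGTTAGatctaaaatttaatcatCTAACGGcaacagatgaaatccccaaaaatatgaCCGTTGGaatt
The promoter of AT5G06150 had 4 matches to the longer forms, at 145 to 139, 69 to 63, 45 to 39 and 11 to 5 bases before the start. The promoter of AT4G37490 had 1, at 61 to 55 bases before the start, and further copies of the core at 168 to 164 and 13 to 9. Over the 250 bases before the start, the longer forms were present in 2 of 9 members and in 2.68% of 25215 promoters of tested genes. The core AACGG was present in 4 of 9 members, the other two being the D3 cyclin and KNOLLE, against 20.8% of promoters. An E2F-like form, TTT followed by 2 bases that are each C or G, then CG and a last C or G, was found in 0 of 9 members and 2.78% of promoters, so these letters were not in this window of any member. A match is a description of letters and not a site shown to be bound.

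Each member differed among the 9 tissues in limma's F test on log2(TPM + 1), with adjusted p between 2.05e-11 and 4.45e-10. The share of all 25460 tested genes that passed was 98.4%, so passing does not set the members apart. The members' levels summed to 623 to 657 TPM in the root columns, 325 to 326 in silique, 294 to 296 in flower, 147 to 154 in shoot, 141 to 149 in seedling, 123 to 126 in stem, 107 in rosetta leaf, 62.2 to 64.6 in cauline leaf and 17.8 in seed. Root was highest for 8 of the 9 genes, and for each of these 8 its lower column lay above every column of every other tissue. KNOLLE was the exception. In whole tissues a smaller number of dividing cells and less RNA per cell cannot be told apart. The plot of TPM by tissue shows the columns behind these sums.

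**Figure D1:**
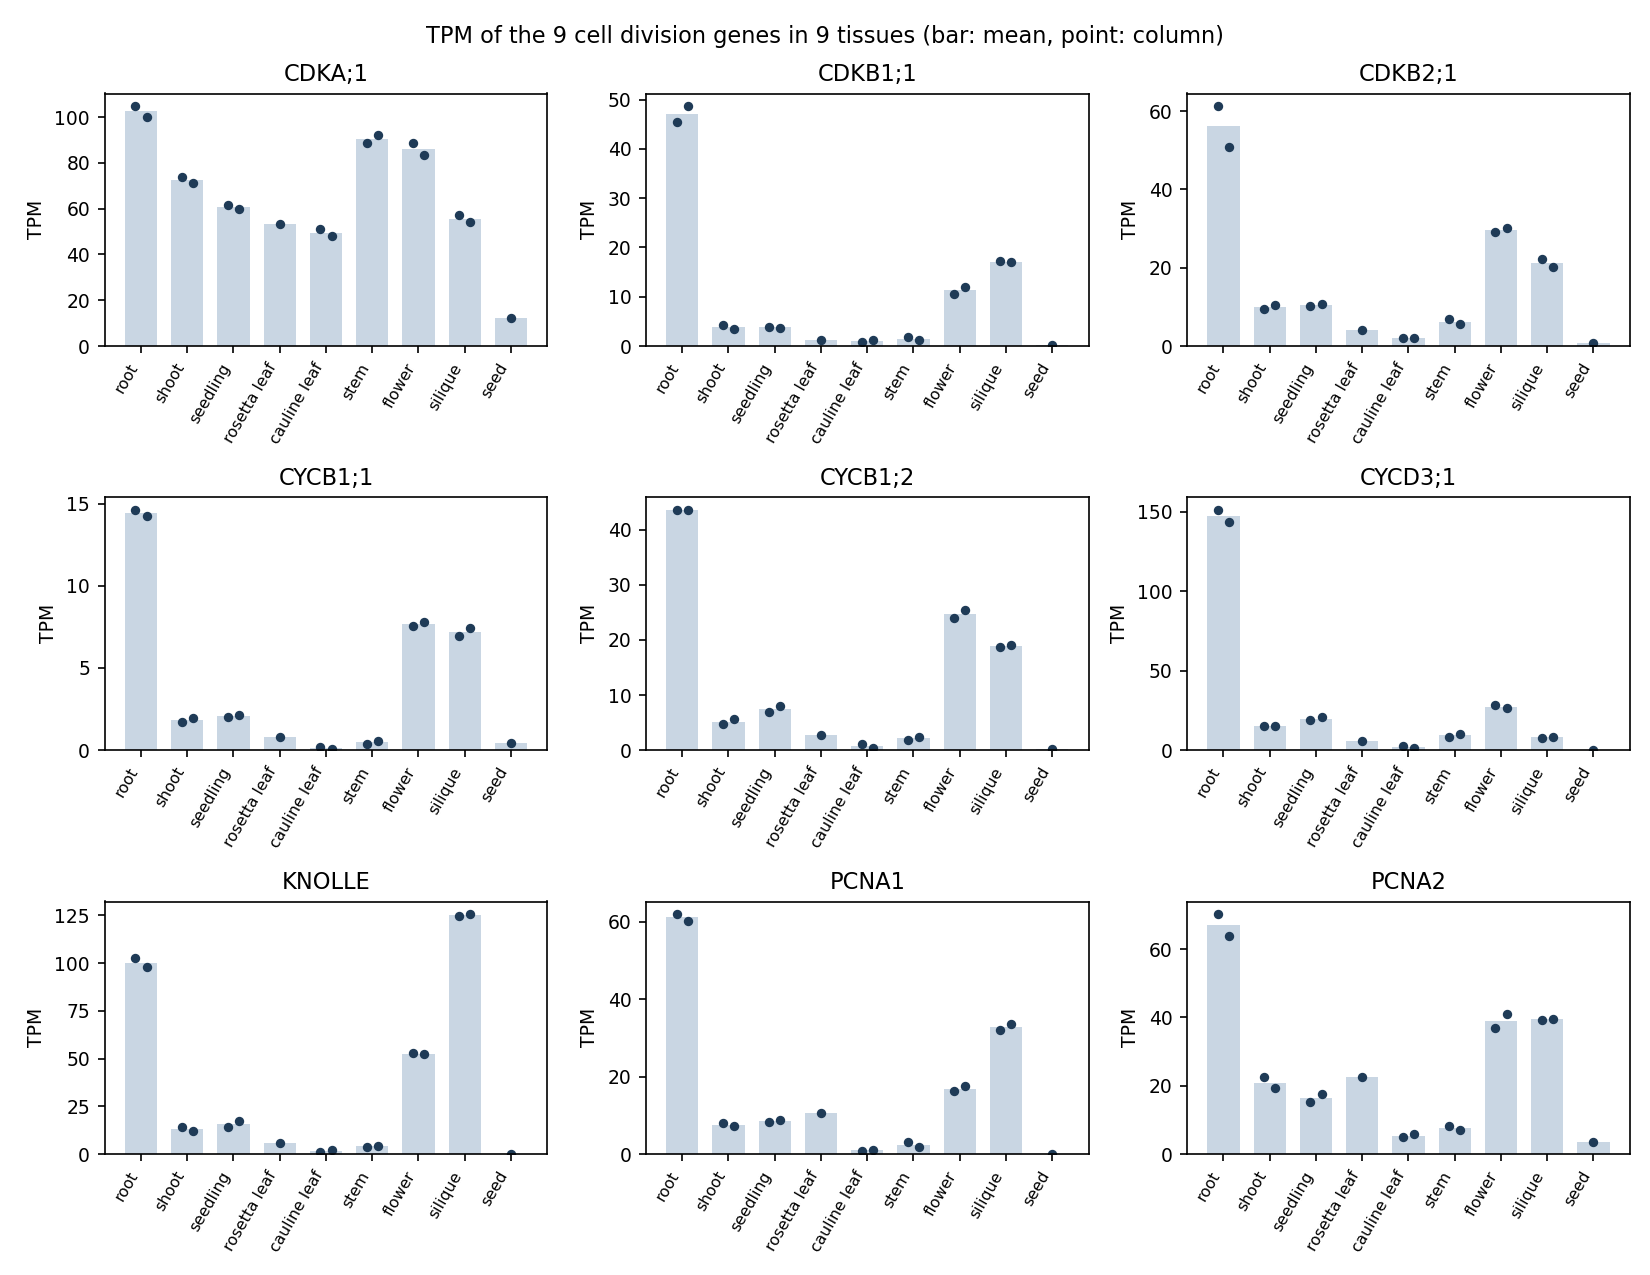
TPM (linear axis from 0, a separate scale for each gene) of the 9 genes in 9 tissues. Bars are means and points are single columns, 2 per tissue and 1 for rosetta leaf and seed. Root stands highest in 8 panels, silique in the KNOLLE panel, and the A-type kinase CDKA;1 is the flattest, from 12.4 TPM in seed to 103 in root.

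The A-type kinase CDKA;1, the plant kinase closest to yeast CDC28, lies at chromosome 3, 18071454 to 18074641 (plus strand, TAIR10). It was the most evenly expressed member. Its columns stood at 105 and 100.2 TPM in root, 88.6 and 92.3 in stem, 88.8 and 83.6 in flower, 74.0 and 71.1 in shoot, 61.8 and 60.0 in seedling, 57.2 and 54.0 in silique, 53.2 in rosetta leaf, 51.1 and 48.1 in cauline leaf and 12.4 in seed. Only seed stood far below the rest: the highest and lowest tissue means outside seed differed 2.07-fold. In the order of its tissue means, stem and flower (adjusted p = 0.228), silique and rosetta leaf (0.372), and rosetta and cauline leaf (0.174) did not differ beyond the spread between columns. Because the other members fell more steeply, this kinase gave 16.0% and 16.1% of the summed level in root and 77.4% and 79.1% in cauline leaf.

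The B1-type kinase CDKB1;1, which acts around the entry into mitosis, lies at chromosome 3, 20059671 to 20061488 (plus strand). It stood at 45.5 and 48.8 TPM in root, 17.2 and 17.0 in silique and 10.6 and 12.1 in flower. Shoot (4.32 and 3.38) and seedling (3.92 and 3.66) overlapped, with an adjusted p of 0.96 for their difference. Stem (1.76 and 1.29), rosetta leaf (1.17), cauline leaf (0.877 and 1.21) and seed (0.223) were lowest. Of these, stem against rosetta leaf (0.291) and rosetta against cauline leaf (0.67) did not pass.

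The B2-type kinase CDKB2;1, the other plant-specific mitotic kinase, lies at chromosome 1, 28720328 to 28722550 (minus strand). Its 2 root columns, 61.4 and 50.9 TPM, were further apart than those of the other members and still above flower, at 29.1 and 30.1, and silique, at 22.1 and 20.11. Seedling (10.3 and 10.6) and shoot (9.55 and 10.4) were the only neighbours in its order whose difference did not pass (adjusted p = 0.637). Below them came stem at 6.95 and 5.57, rosetta leaf at 4.15, cauline leaf at 2.13 and 2.08, and seed at 0.823. Flower ranked above silique for this kinase and below it for the B1-type kinase, and each of these 2 differences passed (adjusted p = 0.0023 and 0.00301).

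The B-type cyclin CYCB1;1, widely used as a marker of cells in late second gap phase and mitosis, lies at chromosome 4, 17621886 to 17624308 (minus strand). It was the lowest member in every tissue but seed. Its columns gave 14.6 and 14.2 TPM in root, 7.57 and 7.77 in flower, 6.92 and 7.42 in silique, 2.02 and 2.13 in seedling and 1.71 and 1.98 in shoot. Rosetta leaf (0.798), stem (0.372 and 0.577), seed (0.419) and cauline leaf (0.202 and 0.0647) were under 1 TPM, and here the 2 cauline columns differed 3.13-fold. The differences between flower and silique (adjusted p = 0.513) and between seedling and shoot (0.415) did not pass. Those between rosetta leaf and stem and between stem and seed did not pass either.

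The second B-type cyclin, CYCB1;2, lies at chromosome 5, 1859279 to 1861703 (minus strand). Its level was 43.7 TPM in each root column, 23.9 and 25.4 in flower, 18.7 and 19.0 in silique, 6.86 and 7.92 in seedling, 4.70 and 5.63 in shoot, 2.73 in rosetta leaf, 1.88 and 2.41 in stem, 1.14 and 0.424 in cauline leaf and 0.262 in seed. It was therefore the more abundant of the 2 cyclins in every column but that of seed, by 2.56-fold to 6.54-fold. The difference between flower and silique did not pass (adjusted p = 0.0706), although the flower columns lay above those of silique. Those between rosetta leaf and stem and between cauline leaf and seed did not pass either. These values carry an uncertainty that the other members do not have: of the 1685 stretches of 50 bases in its transcript, 12.2% also occur in AT1G34460, and how shared reads were counted is not given in the sources used here. The other 8 members had 0 shared stretches.

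The D3 cyclin CYCD3;1, which links cytokinin to the entry into the cycle, lies at chromosome 4, 16357421 to 16359565 (plus strand). It had the highest level of any member in root, at 151 and 144 TPM. The next tissues were flower at 28.1 and 26.3, seedling at 18.9 and 20.6 and shoot at 14.8 and 15.4. Root thus stood clear of all other tissues for this gene, by a log2 difference of 2.40 from flower (adjusted p = 1.23e-08). Stem stood at 7.98 and 10.4 TPM, silique at 7.89 and 8.17, rosetta leaf at 5.75, cauline leaf at 2.26 and 1.41 and seed at 0.0728. Stem and silique were its only neighbours whose difference did not pass (adjusted p = 0.306).

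KNOLLE, the syntaxin of the cell plate, lies at chromosome 1, 2709525 to 2711000 (minus strand). It was the only member with its highest mean in silique. Silique stood at 125 and 126 TPM and root at 103 and 97.8, and the columns did not overlap. The difference did not pass (log2 difference 0.32, adjusted p = 0.0857 in limma). That test pools the spread over tissues, and the KNOLLE columns were furthest apart in cauline leaf, by 1.99-fold. Flower followed at 52.9 and 52.4, seedling at 14.0 and 17.3, shoot at 14.0 and 12.2, rosetta leaf at 5.74, stem at 3.79 and 4.37 and cauline leaf at 1.03 and 2.06. In seed it was listed at 0, the only value of 0 among the members. The difference between seedling and shoot did not pass (adjusted p = 0.233), nor did that between rosetta leaf and stem.

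PCNA1 lies at chromosome 1, 2263037 to 2264553 (plus strand), and PCNA2 at chromosome 2, 12649906 to 12651753 (minus strand). Their coding sequences, of 792 and 795 bases, were 85.5% identical when aligned without gaps, with no stretch of 50 bases in common. PCNA1 stood at 62.1 and 60.2 TPM in root, 32.1 and 33.6 in silique, 16.3 and 17.5 in flower, 10.5 in rosetta leaf, 8.17 and 8.92 in seedling, 8.01 and 7.25 in shoot, 3.04 and 1.79 in stem, 0.895 and 1.03 in cauline leaf and 0.121 in seed. PCNA2 stood at 70.4 and 63.8 TPM in root, 39.3 and 39.6 in silique, 37.0 and 41.0 in flower, 22.6 in rosetta leaf, 22.6 and 19.2 in shoot, 15.4 and 17.6 in seedling, 8.20 and 7.11 in stem, 4.99 and 5.80 in cauline leaf and 3.46 in seed. Both clamp genes ranked rosetta leaf at place 4 of 9, above seedling and shoot, whereas it was at place 6 or 7 for the other members. The differences of rosetta leaf from seedling for PCNA1 and from shoot for PCNA2 did not pass. Nor did that between silique and flower for PCNA2 (adjusted p = 0.886).

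The ratio of PCNA2 to PCNA1 was nearest to 1 in root and silique and largest in cauline leaf and seed. It was 1.13 and 1.06 in root, 1.23 and 1.18 in silique, 1.88 and 1.98 in seedling, 2.15 in rosetta leaf and 2.28 and 2.34 in flower. Shoot gave 2.82 and 2.65, stem 2.70 and 3.96, cauline leaf 5.58 and 5.64, and seed 28.7, from a PCNA1 level of only 0.121 TPM. Another ratio set silique apart: KNOLLE stood at 6.67 and 6.62 times the level of AT5G06150 there, against 1.81 to 2.98 times in root, flower, seedling, shoot, rosetta leaf and stem. The 2 cauline columns disagreed on this ratio, at 0.901 and 4.85. The D3 cyclin exceeded PCNA1 in root (2.44 and 2.39 times), seedling, shoot, flower, stem and cauline leaf, and fell below it in rosetta leaf (0.548), silique (0.246 and 0.244) and seed (0.603). These ratios were not tested.

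**Figure D2:**
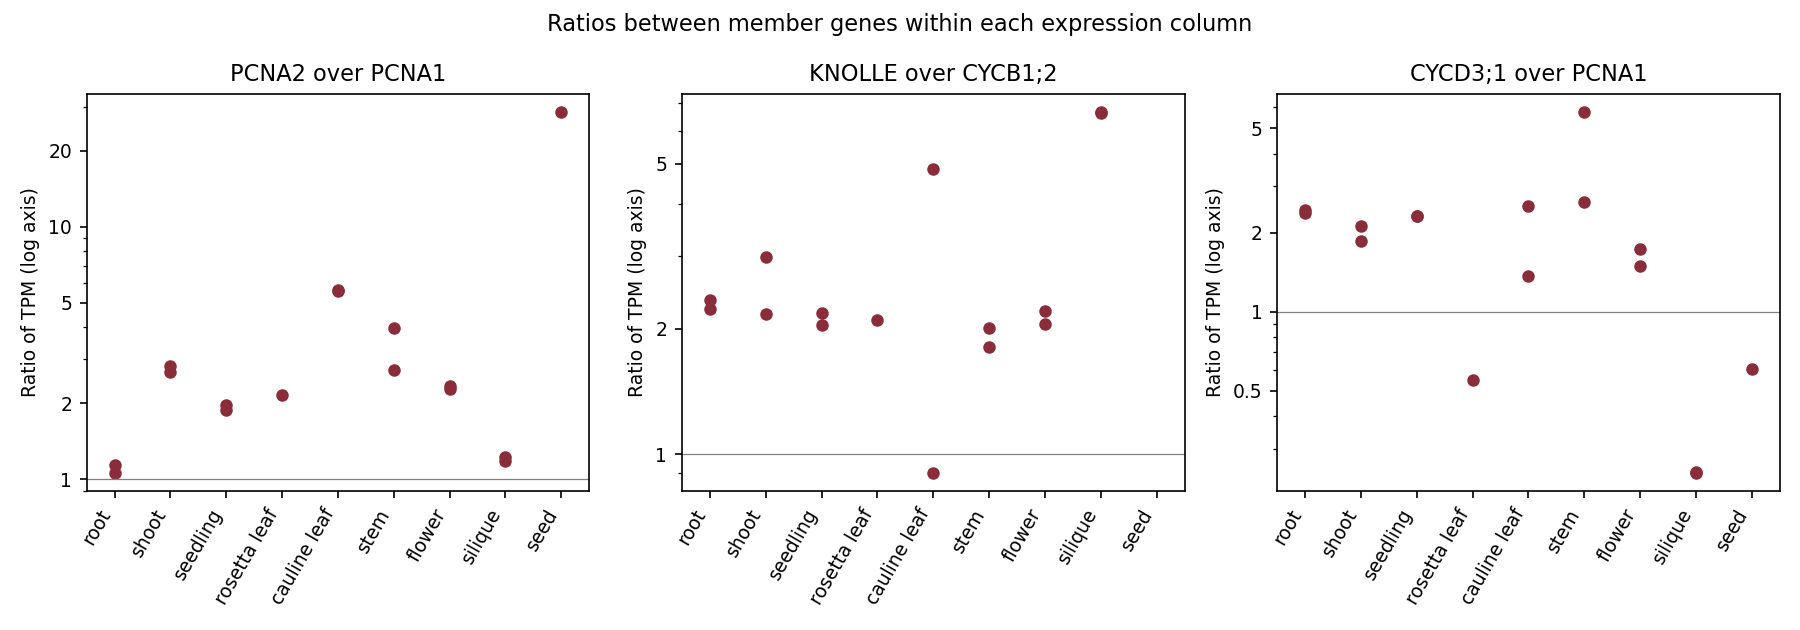
Ratios of TPM between members within each column, on log axes, with 1 point per column and a line at 1. PCNA2 over PCNA1 rises to 28.7 in seed, KNOLLE over CYCB1;2 stands at 6.67 and 6.62 in silique (no seed point, since KNOLLE was listed at 0), and CYCD3;1 over PCNA1 lies below 1 in rosetta leaf, silique and seed.

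Over the members, 50 of 72 neighbouring pairs of tissues in the order of levels passed the test and 22 did not. Over all tested genes the share passing was 40.4%. Across the 9 tissue means, the A-type kinase was least like the average standardised profile of the members (Pearson's r = 0.75) and the B2-type kinase most like it (0.992). The D3 cyclin (0.92) and AT4G37490 (0.941) followed the kinase, and the others lay between 0.962 and 0.987. These correlations describe 9 tissue means of log2(TPM + 1), highest in root or silique and lowest in seed or cauline leaf for each member. They carry no test.

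Among 21499 genes with at least 5 TPM in a tissue, those most like the members' average profile, by Pearson's r over the 9 means, were AT3G02640 (0.996), AT2G25270 (0.994), AT4G15830 (0.993), the B-type cyclin CYCB1;4 (0.99) and AT2G17630 (0.989). AT3G02640, the nearest, had 194 TPM in root, 76.3 in flower, 62.8 in silique and 0.372 in seed. By Spearman's rho 39 genes tied at 1, and only 1 of these 5 was among them. The gene nearest to PCNA1 was MCM7, a subunit of the replicative helicase (0.994). That nearest to the B1-type kinase was DRP5A, a dynamin-related protein of cytokinesis (0.994), and that nearest to the B2-type kinase was 3xHMG-box1 (0.992), whose product binds mitotic chromosomes. KNOLLE was followed most closely by ENODL14 (0.997). Functions are named here for only some of the nearest genes, and a shared function was not tested. For the A-type kinase the nearest gene was AT5G50150 (0.993), for AT4G37490 it was AT5G13520 (0.992), for AT5G06150 AT3G51280 (0.996), for the D3 cyclin AT3G44940 (0.989) and for PCNA2 AT1G09590 (0.996).

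The tissues were compared in 7 contrasts, each as a difference of log2(TPM + 1) with its standard error (SE) and an adjusted p from limma over all tested genes. With 2 columns or 1 per tissue, p-values measure the spread between columns, which may be technical. For each gene the spread was pooled over the 7 tissues with 2 columns and adjusted towards that of other genes. It was therefore the same in every comparison, whichever tissues were compared. Rosetta leaf and seed have 1 column and so no spread of their own, and the lone column is assumed to vary as those 7 tissues do. The tissue labels were checked against marker genes: all 3 flower markers, both seed storage genes and both silique markers peaked in the labelled tissue, both green tissue genes in rosetta leaf, both secondary wall cellulose synthases in stem, and NRT2.1 and SHR in root, whereas the root marker SCR was highest in seedling. Replicate columns correlated at r = 0.994 to 0.997 across genes, and the 10 highest genes held 2.07% (root) to 7.42% (seed) of TPM.

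All 9 members were higher in root than in shoot, where 40.7% of all genes were higher and 34.6% lower. Of the log2 differences, that of the B1-type kinase was the largest at 3.32 (SE 0.132), a 12.2-fold ratio of mean TPM, followed by the D3 cyclin at 3.20 (SE 0.136). AT5G06150 differed by 2.86, KNOLLE and PCNA1 by 2.85 each, AT4G37490 by 2.44, the B2-type kinase by 2.37 and PCNA2 by 1.64. The A-type kinase stood apart with 0.49 (SE 0.0492), a 1.41-fold ratio. The adjusted p ran from 5.14e-10 to 2.27e-06. The members' median was 2.85 against 0.037 over all genes. The summed root markers stood at 118 to 127 TPM in root and 33.8 to 33.9 in shoot. This sum includes SCR, which did not peak in root. NRT2.1 alone stood at 84.3 TPM in root and 0.191 in shoot.

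In seedling against shoot 2 members were higher and 2 lower, against 23.3% and 35.1% of all genes. Seedlings were 7 days old, and shoots were 14 days old with their roots taken separately. Age and any root in the seedling samples therefore cannot be told apart here. AT5G06150 (0.45, SE 0.167, adjusted p = 0.0391) and the D3 cyclin (0.36, SE 0.136, adjusted p = 0.0397) were higher, and the A-type kinase (−0.25, SE 0.0492, adjusted p = 0.00112) and PCNA2 (−0.32, SE 0.104, adjusted p = 0.0193) were lower. Each column was also centred on the median of the same 13127 genes, those with at least 1 TPM in every column. After this centring 4 members were higher and 0 lower: AT4G37490 (0.30) and KNOLLE (0.43) became called, and the A-type kinase and PCNA2 were lost. AT5G06150 and the D3 cyclin were lost, leaving 2 calls, with a pseudocount of 0.1, with no filter on low values or with a replicate block. The members' median difference was 0.11 and that of all genes −0.093. Leaving out a column reduced the 4 calls to 1 without seedling replicate 1 or shoot replicate 1, and to 2 without seedling replicate 2 or any single column of root, flower or silique.

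In rosetta leaf 7 members were lower than in shoot and 0 higher, against 52.9% and 14.0% of all genes. Rosetta leaf has 1 column, so the test takes its spread from other tissues. On the log2 scale the difference was −1.25 for the D3 cyclin, −1.15 for the B1-type kinase, −1.09 for the B2-type kinase, −1.06 for KNOLLE, −0.72 for AT5G06150, −0.66 for AT4G37490 and −0.44 for the A-type kinase. PCNA1 (0.42, SE 0.171, adjusted p = 0.0506) and PCNA2 (0.11, SE 0.127, adjusted p = 0.48) did not pass. PCNA1 was called when either stem column was left out (adjusted p = 0.00395 and 0.00379), and AT5G06150 was lost with a pseudocount of 0.1 (adjusted p = 0.0571). The median over all genes was itself −0.40, and centring removed a shift of −0.60. After centring, PCNA1 (1.01, adjusted p = 0.000286) and PCNA2 (0.71, adjusted p = 0.000377) were called higher, the A-type kinase changed sign to 0.16 (adjusted p = 0.0319), and KNOLLE and both B-type cyclins were no longer called. The 2 mitotic kinases and the D3 cyclin stayed lower under either scale. The summed green tissue markers were 6674 TPM in rosetta leaf and 2842 to 3186 in shoot, and their part in the result was not tested.

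All 9 members were higher in flower than in cauline leaf, where 45.8% of all genes were higher and 31.1% lower. On the log2(TPM + 1) scale KNOLLE differed most, by 4.43 (SE 0.159), then AT5G06150 by 3.88, the D3 cyclin by 3.33, the B2-type kinase by 3.30, PCNA1 by 3.19, AT4G37490 by 2.94, PCNA2 by 2.65 and the B1-type kinase by 2.60. The A-type kinase again differed least, by 0.79. As a ratio of mean TPM, which the added 1 does not dampen, AT4G37490 came first with 57.5-fold, from 0.134 TPM in cauline leaf, and KNOLLE next with 34.1-fold. Adjusted p was between 1.26e-10 and 3.65e-08, and the members' median of 3.19 compares with 0.17 over all genes.

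Stem against the same cauline leaf columns gave 8 members higher and 0 lower, against 27.6% and 29.0% of all genes. The D3 cyclin differed most, by 1.85 (SE 0.136), a 5.01-fold ratio, and the B2-type kinase followed with 1.22 and KNOLLE with 1.03. The A-type kinase, at 0.85 (SE 0.0492), differed here more than in root against shoot. AT5G06150 (0.84), PCNA1 (0.78), PCNA2 (0.44) and AT4G37490 (0.38, adjusted p = 0.0125) were also higher, and the B1-type kinase was not called (0.30, SE 0.132, adjusted p = 0.0724). Leaving out cauline leaf replicate 2 or stem replicate 2 exchanged the last pair: AT4G37490 was then lost (adjusted p = 0.0906 and 0.103) and the B1-type kinase gained (0.0429 and 0.0343), as it also was with a pseudocount of 0.1 (0.0404).

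In silique against flower 3 members were higher and 3 lower. KNOLLE (1.24, SE 0.159, adjusted p = 3.01e-05), PCNA1 (0.92, SE 0.14, adjusted p = 0.000114) and the B1-type kinase (0.55, SE 0.132, adjusted p = 0.00301) were higher in silique. The D3 cyclin (−1.64, SE 0.136, adjusted p = 6.93e-07), the A-type kinase (−0.62) and the B2-type kinase (−0.47) were lower. AT4G37490 (−0.09), AT5G06150 (−0.37, adjusted p = 0.0706) and PCNA2 (0.02) did not pass, although AT5G06150 was called without either cauline leaf column (adjusted p = 0.0131 and 0.0128). Of all genes 30.3% were higher and 38.4% lower in silique, so these counts do not set the members apart. Silique carried 252 TPM of the summed flower markers, against 410 to 419 in flower, and all 3 were above 0 in it. It also carried 4620 to 4709 TPM of the summed seed storage genes, against 12.1 to 28.5 in flower, and the part of either in these differences was not tested.

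In dry seed all 9 members were lower than in silique, against 57.3% of all genes lower and 23.1% higher. Seed has 1 column, so here too the spread in the test is that of other tissues. In seed 7 members were below 1 TPM, and only the A-type kinase (12.4 TPM) and PCNA2 (3.46 TPM) exceeded it. Silique stood 4.49-fold above seed for the A-type kinase, 11.4-fold for PCNA2, 17.1-fold for AT4G37490, 25.6-fold for the B2-type kinase and 272-fold for PCNA1. These ratios of mean TPM rest on 1 seed column and, for PCNA1, on 0.121 TPM. No ratio is given for KNOLLE, which was listed at 0 in seed. On the log2(TPM + 1) scale the members' median difference was −3.60 and that of all genes −0.67, and centring took the members' median to −3.03 with all 9 still called.

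**Figure D3:**
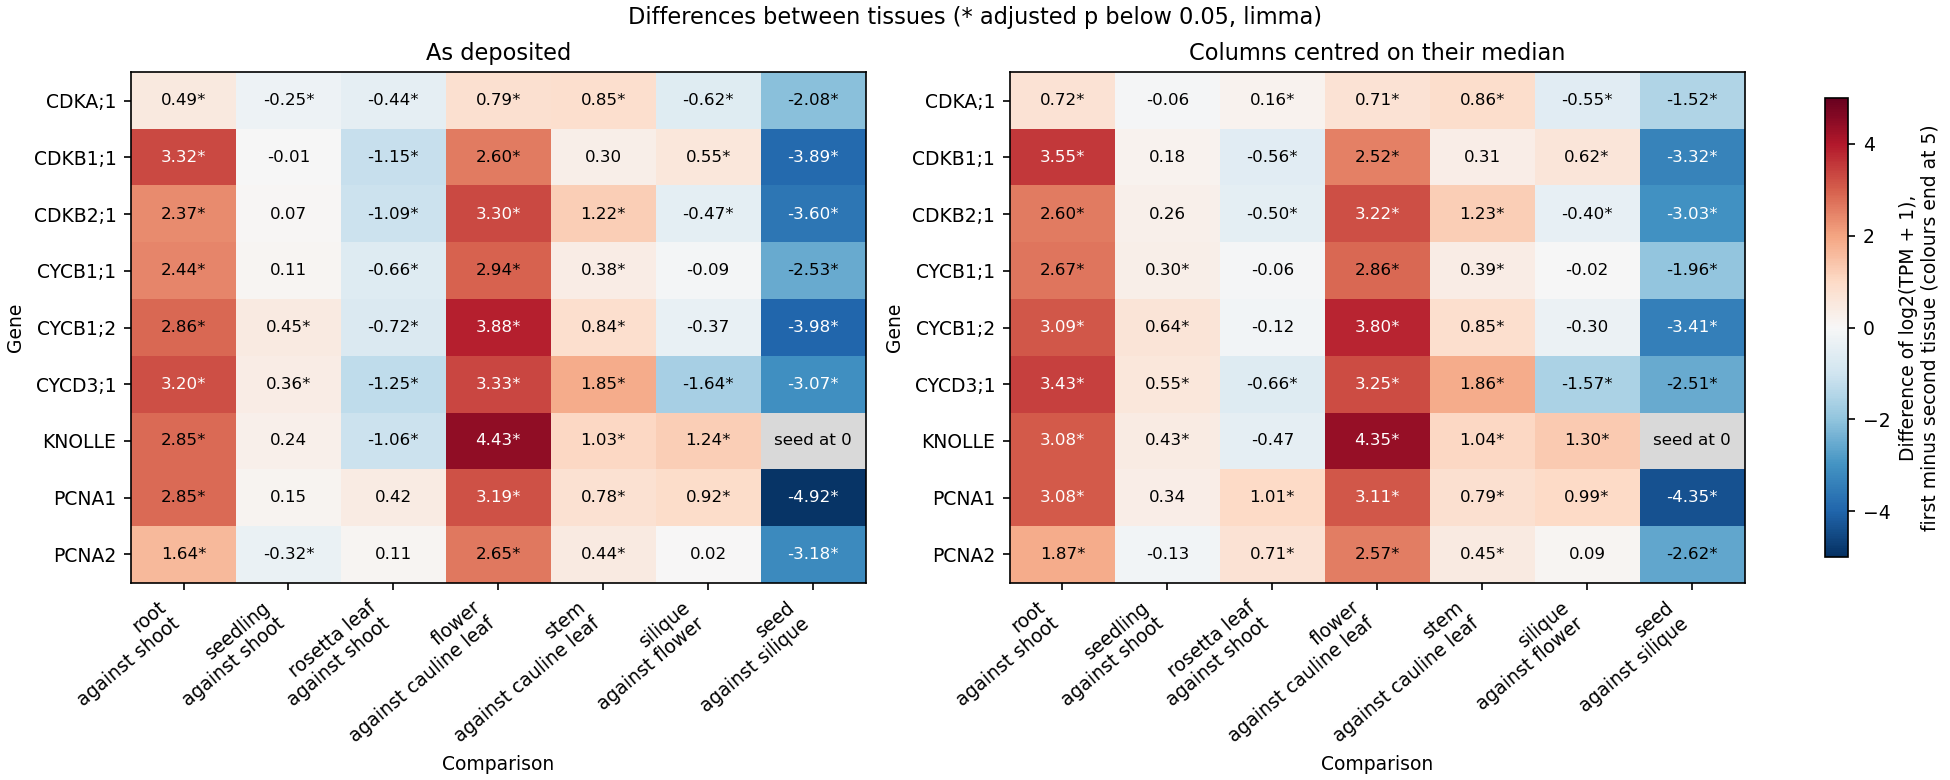
Differences of log2(TPM + 1) for the 9 members (rows) in 7 comparisons (columns). Left, from the deposited values, and right, after centring each column on its median over the same 13127 genes. Colour and number give the first minus the second tissue, a star marks an adjusted p below 0.05 in limma, and grey marks KNOLLE, listed at 0 in seed. The rosetta leaf column changes most between panels, with the A-type kinase going from −0.44 to 0.16.

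The column medians used for centring differed by more than 0.1 on the log2 scale in 4 comparisons, by −0.23 for root against shoot, −0.19 for seedling against shoot, −0.60 for rosetta leaf against shoot and −0.57 for seed against silique. The share of called genes that were higher in the first tissue went from 54% to 65% in root against shoot, from 39.9% to 59.9% in seedling against shoot, from 20.9% to 61% in rosetta leaf against shoot and from 28.7% to 45.5% in seed against silique. The members called changed under centring in seedling against shoot and in rosetta leaf against shoot, and were the same in the other 5 comparisons.

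The 81 other cell cycle genes were counted in the same comparisons. In root against shoot 67 were higher and 6 lower, against 40.7% and 34.6% of all genes. All 15 A- and B-type cyclins, all 14 replication genes and all 11 mitosis genes were higher, with medians of 1.72, 1.79 and 2.65. Of the 9 other D-type cyclins 4 were higher and 3 lower, near the shares of all genes, with a median of −0.20. CYCD6;1 (3.18) and CYCD5;1 (1.38) had the largest differences. The close relatives of the D3 cyclin, named after their values were seen, went opposite ways. CYCD3;2 differed by −1.31 and CYCD3;3 by 0.82. In flower against cauline leaf 69 were higher and 7 lower, against 45.8% and 31.1% of all genes. In stem against cauline leaf 42 were higher and 6 lower, against 27.6% and 29.0% of all genes. CDC6, which loads the helicase onto origins, went against its list in stem against cauline leaf, with a log2 difference of −1.70.

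The replication genes and the mitosis genes parted in 2 comparisons. In rosetta leaf against shoot 6 of the 81 were higher and 48 lower, against 14.0% and 52.9% of all genes, and after centring the balance turned to 26 higher and 17 lower. Of 14 replication genes 3 were higher and 1 lower, with a median of 0.17, and MCM3, a helicase subunit, was higher by 0.65 while the polymerase subunit gene POLD1 differed by −0.91. Of 11 mitosis genes 0 were higher and 10 lower, with a median of −0.84. CDC20.1, an activator of the anaphase-promoting complex, differed by −1.61. Cytokinesis genes were lower in 7 of 8, led by NPSN11, a SNARE partner of KNOLLE, with −1.78. After centring, 12 replication genes were higher and 1 lower, and 0 mitosis genes were higher and 3 lower. In silique against flower, where 30.3% of all genes were higher and 38.4% lower, 10 of 14 replication genes were higher and 0 lower. Their median was 0.32, while 1 mitosis gene was higher and 7 were lower, with a median of −0.32. Of 8 cytokinesis genes 6 were higher there, with NPSN11 higher by 0.98, and 6 of 9 other D-type cyclins were lower. The difference between lists was not tested.

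In seedling against shoot 8 of the 81 were higher and 22 lower, against 23.3% and 35.1% of all genes, with a median of −0.071. After centring the balance turned to 22 higher and 12 lower, with a median of 0.12. In silique against flower 28 were higher and 29 lower over all lists, against 30.3% and 38.4% of all genes. In seed against silique the median of the 81 was −2.20, against −0.67 over all genes. The helicase subunit MCM7, at 0.116 TPM in seed and 18.4 in silique, differed by −4.12. AUR2, an Aurora kinase and the 1 mitosis gene higher in seed, is named after its values were seen. It stood at 11.9 TPM in seed and 8.02 in silique (log2 difference 0.52, adjusted p = 0.0124).

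**Figure D4:**
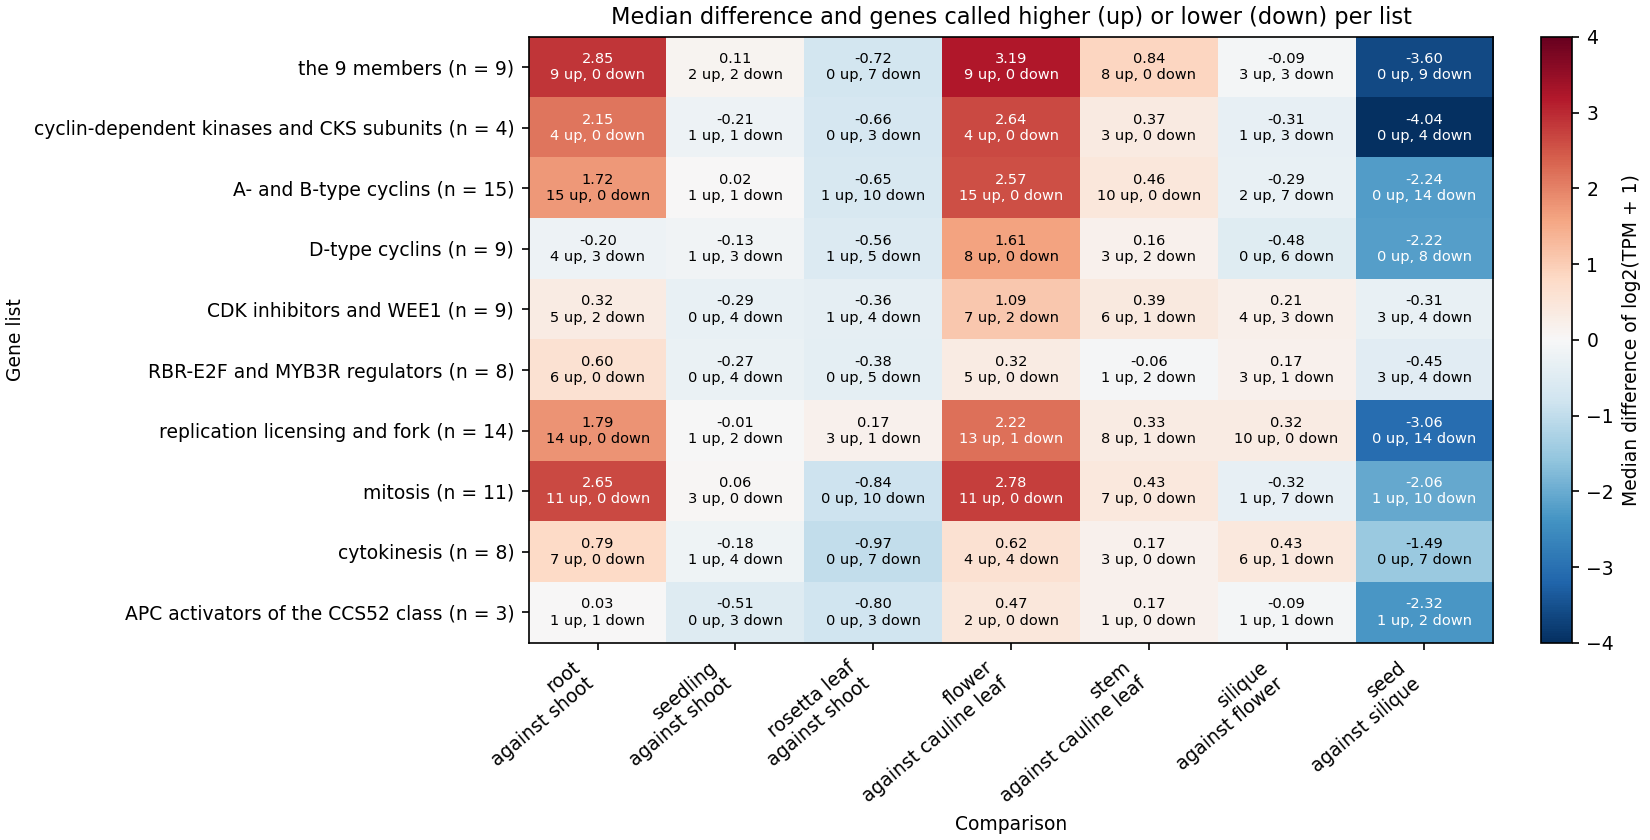
Median difference of log2(TPM + 1) per gene list (rows, with the number of genes) and comparison (columns), with the number of genes called higher (up) or lower (down) in the first tissue. In rosetta leaf against shoot the replication list has 3 genes higher and 1 lower, and the mitosis list 0 higher and 10 lower.

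The single Ψ site within the members lay in PCNA2 at chromosome 2, position 12651330 on the minus strand, in the motif CCATCAA printed above. It is in the coding sequence, exon 1, at coding base 269. Its Ψ fraction, the calibrated share of modified transcripts with all libraries of a tissue combined, was 0.559 in flower, 0.427 in stem, 0.403 in root, 0.266 in seedling and 0.204 in silique. It was listed at 0 in cauline leaf, rosetta leaf, seed and shoot. The site passed the authors' P value-based filter in flower only. The fractions have no replicate values and the depth behind them is unknown, so no tissue can be said to differ from another. As listed, their order was not that of PCNA2 levels: root had the highest level (67.1 TPM) and a lower fraction than flower, and stem had 7.66 TPM and the second highest fraction. The root and stem fractions had not passed the filter, and a relation between fraction and level was not tested. The tissues listed at 0 had 3.46 to 22.6 TPM.

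**Figure D5:**
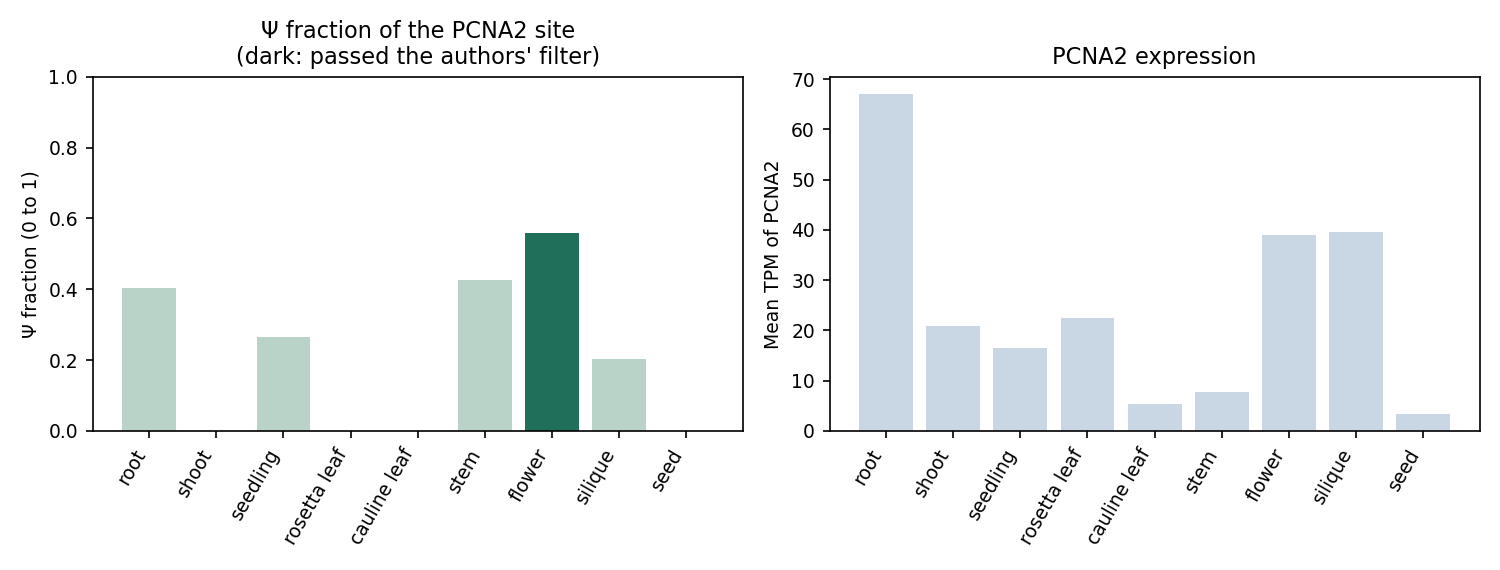
Left, Ψ fraction (0 to 1) of the PCNA2 site in 9 tissues, 1 pooled value per tissue with no error, dark where the site passed the authors' filter. Right, mean TPM of PCNA2. The fraction is highest in flower (0.559) and the level highest in root (67.1 TPM).

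PCNA1 carries the same 7 bases at the same coding position, base 269, and had no listed site. Its mean level in flower was 16.9 TPM, against 39.0 TPM for PCNA2. Why no site was listed in PCNA1 was not tested. The members other than PCNA1 and PCNA2 had no site either. A site was therefore listed in 1 of 9 members (11.1%), in 12 of the 81 other cell cycle genes (14.8%, with 15 sites) and in 5473 of the 25460 genes with at least 1 TPM in a tissue (21.5%). The table held 8512 sites in all.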

How the data were processed

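The authors mapped BID-seq reads to TAIR10, combined the replicates of each tissue and deposited a calibrated Ψ fraction per site and tissue, with a mark for sites passing their filter. The authors also deposited TPM per gene in 16 columns. The columns name tissue and replicate but not library type, and were taken as the input libraries because their numbers per tissue are the same. The software behind the TPM values is not given in the sources used here, and their depth is unknown. Site positions were checked against the TAIR10.1 reference: the motif was found at 100% of sites on nuclear chromosomes.

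Genes with a mean of at least 1 TPM in a tissue (25460, all 9 members among them) were tested on log2(TPM + 1) with limma 3.58.1 (trend) in R 4.3.3, with 1 coefficient per tissue and Benjamini-Hochberg adjustment over all genes at 0.05. The procedure was tested on simulated data. A fold change on this scale understates the change of genes with low TPM. The members and lists were chosen with earlier results of these data known. Every member is named. Of the other cell cycle genes at most the 2 largest called differences per list and comparison are named, apart from 2 genes chosen after their values were seen (CYCD3;2 and AUR2), and of the genes with similar profiles the 5 nearest to the average and the nearest to each member.

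Alternatives were a pseudocount of 0.1, no filter, columns centred on the median of 13127 genes, the replicate number as a block, each column left out, other fraction limits for sites and Spearman's rho for likeness. Sequences and gene symbols are from RefSeq (TAIR10.1).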

Additional observations from a re-analysis of the deposited data

How the results depend on the processing

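Each member was called among the 9 tissues under every alternative. Of 252 log2 differences recomputed under the other pseudocount, no filter, centring and the replicate block, 234 kept their direction and side of the threshold, 12 were no longer called, 5 became called and 1 changed sign, that of CDKA;1 in rosetta leaf against shoot under centring (0.16). Of 882 recomputed without a column, 853 were the same, 23 were lost, 6 gained and 0 changed sign. The least stable count was that of members called in seedling against shoot, 4 in the main analysis. It was 2 with a pseudocount of 0.1, 2 without a filter and 2 with a replicate block, and 1 to 4 when a column was left out. The numbers 1 and 2 did not pair the tissues: over 21 pairs of tissues the correlation of deviations lay between −0.0703 and 0.0925, and 0 were above 0.1. The block changed no other member count. Counts of members ranged without a column from 7 to 8 in rosetta leaf against shoot and from 6 to 7 in silique against flower, and neighbouring pairs that did not pass from 19 to 29 around 22. PCNA1 in rosetta leaf against shoot was called (adjusted p = 0.00395 and 0.00379) without stem replicate 1 or 2, columns outside that comparison. With any fraction above 0 counted, whatever the authors' filter, the PCNA2 site counted in 5 tissues in place of 1. With Spearman's rho, 39 genes tied at 1 and 1 of the 5 genes nearest by Pearson's r was among them.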
